A study of Mus musculus with 2 samples.

Results

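The genes of the mitochondrial respiratory chain and the ATP synthase were compared between Foxj3 KO and Foxj3 WT skeletal myoblasts of the mouse. Myoblasts are muscle precursor cells that still divide. Foxj3 encodes a forkhead transcription factor. Members were chosen by symbol in the annotation of the array: every gene whose symbol starts with Nduf, Uqcr, Cox4 to Cox8 or Atp5, together with Sdha, Sdhb, Sdhc, Sdhd and Cycs. This gave 91 genes with 183 probe sets, of 18193 genes named on the array. A further 10 probe sets carried a member's symbol beside another symbol and were left out of the counts. Ndufa11 and Ndufs6 were among the symbols found on such probe sets alone. Cox7b was not analysed here.

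RNA of 1 Foxj3 KO culture and of 1 Foxj3 WT culture was hybridised to 1 Affymetrix array each. Both cultures were skeletal myoblasts at passage 3, grown in DMEM with 20% fetal bovine serum and antibiotics and harvested at 80% confluency. No source used here gives the allele, the strain, the age or number of donor animals or how the cultures were derived. With 1 array per group there was no replicate, no test could be made and no p-value was computed, so every difference describes these 2 arrays and was not set against a spread between cultures. The comparison asks how these transcripts stand in myoblasts lacking Foxj3 relative to WT myoblasts.

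The values are deposited linear signal intensities per probe set. The median over 45037 probe sets was 63.94 for KO and 62.03 for WT. A detection floor was set at 47.04, the 40th percentile of all values of both arrays, and lower values were raised to it before a ratio was taken. A gene counted as measured if its main probe set, the brightest by mean log2 signal, exceeded that floor on either array. The brightest Foxj3 probe set read 77.28 on the KO array, against 495.51 on the WT array, while a second read 99.40 on the KO array, against 79.74 on the WT array. The probe sets of the targeted gene thus differed in direction, and no source used here says which of them lie in the deleted part. All 8 myoblast markers examined, among them Myod1, Myf5, Pax7 and Des, exceeded the floor on either array, with a summed signal of 8058.94 on the KO array, against 8001.76 on the WT array. The near-equal sums held genes on both sides: Myod1 read 1750.95 on the KO array, against 631.27 on the WT array, and Des read 1090.79 on the KO array, against 2024.29 on the WT array. Itga7 and Cdh15 were also lower on the KO array (log2 ratios, KO over WT, of -0.62 and -0.55), and Chrna1, the brightest, was close to level (0.04). A dimmer Des probe set went the other way, at 139.24 on the KO array, against 78.74 on the WT array. Fibroblast markers summed to 1721.91 on the KO array, against 1325.79 on the WT array, macrophage markers to 584.82 on the KO array, against 690.2 on the WT array, and endothelial markers to 259.05 on the KO array, against 183.56 on the WT array, over 5 of 7, 4 of 6 and 3 of 5 measured genes. The part of these markers in the results below was not tested.

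The respiratory chain passes electrons from NADH through complex I, or from succinate through complex II, to complex III, and by way of the small carrier cytochrome c to complex IV, which reduces oxygen. Complexes I, III and IV pump protons across the inner mitochondrial membrane, and the ATP synthase, also called complex V, uses the gradient to make ATP. Most subunits are encoded in the nucleus and a few in mitochondrial DNA. When myoblasts differentiate into fibres they build more mitochondria, and complex IV then exchanges some of its small subunits for isoforms found in heart and skeletal muscle.

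Of the muscle isoforms of complex IV, Cox6a2 and Cox8b were far lower on the KO array, and Cox7a1 was lower at a dim signal. The other members leaned slightly to lower values, with much scatter. Of 89 measured members, 5 were at least 2-fold lower on the KO array and 1 was at least 2-fold higher. Over all 14597 measured genes the shares were 6.72% lower and 3.73% higher. All 3 muscle isoforms were among the 5 lower genes, so that 2 of the other 86 measured members, Ndufa5 and Ndufb2, were at least 2-fold lower. Ratios were below 0 in 59 members (66.3%), against 53.7% of all measured genes. The median log2 ratio, KO over WT here and throughout, was -0.22 over the 89 members and -0.17 without the muscle isoforms, against -0.06 over all measured genes. At the milder limit of 1.5-fold, 14 members were lower and 7 higher, while 19.3% of all genes were lower and 12.8% higher. The members under the floor on both arrays were Cox7b2, known as a testis isoform, and Ndufb4, whose only probe set with 1 symbol read 26.81 on the KO array, against 22.43 on the WT array. Ndufb4 also shares probe sets with Ndufb4b and Ndufb4c, which were left out of the counts. These were bright, at 1098.95 and 1107.81 on the KO array, against 818.4 and 701.83 on the WT array.

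**Figure D1:**
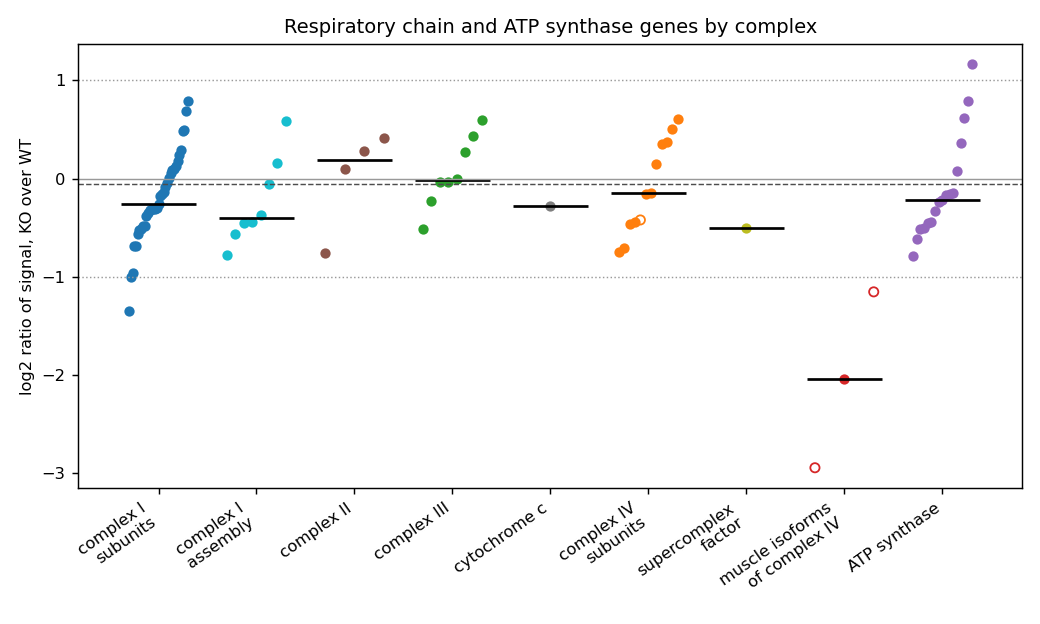
Log2 ratio of signal (KO over WT, vertical axis) of the main probe set of each of the 89 measured members, grouped by complex. Each point is 1 gene, open points are bounds because 1 array was under the floor, thick bars are medians of the group, dotted lines mark 2-fold, and the dashed line is the median of all measured genes at -0.06. The 3 muscle isoforms lie below -1 and the medians of the other groups between -0.50 and 0.19.

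**Figure D2:**
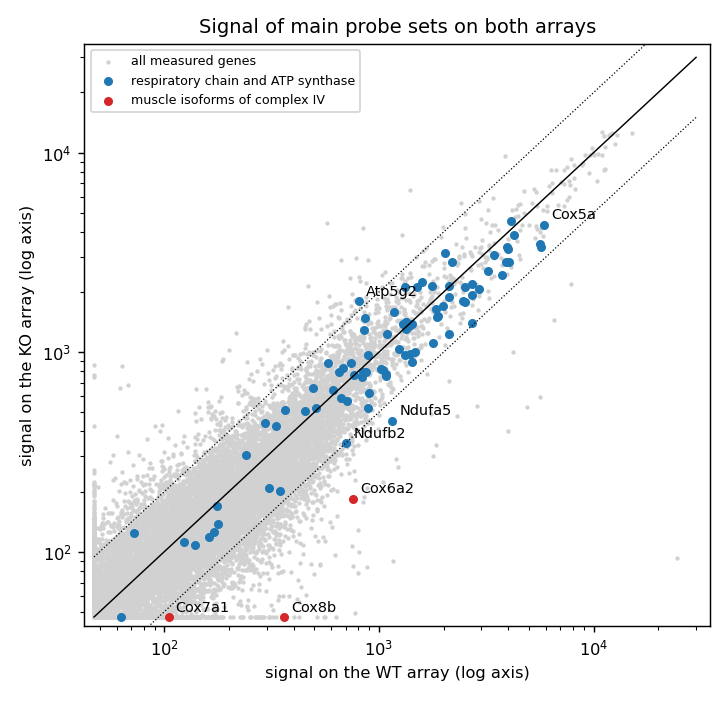
Signal of the main probe set of each gene on the KO array (vertical) and on the WT array (horizontal), both log axes, with values under 47.04 drawn at 47.04. Grey points are all measured genes, blue points are members, red points are muscle isoforms of complex IV, the solid line is equality and dotted lines are 2-fold. Most blue points lie between the dotted lines, and the red points lie below the lower one.

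The muscle isoforms were described first because Cox6a2 and Cox8b stood farthest from the other members. Cox7a1 was at a bound of log2 -1.15, beside -1.34 for Ndufa5. Cox6a2 encodes the heart and skeletal muscle form of subunit VIa of complex IV. Its main probe set read 184.03 on the KO array, against 754.59 on the WT array, 4.10-fold lower (log2 ratio -2.04). Its second probe set read 5.02 on the KO array, against 365.75 on the WT array, at least 7.78-fold lower. Both Cox6a2 probe sets therefore placed the KO array below the WT array. Cox8b, the muscle form of subunit VIII, had 1 probe set, which read 38.19 on the KO array, against 361.76 on the WT array, at least 7.69-fold lower. Cox7a1, the muscle form of subunit VIIa, had 1 dim probe set, which read 28.07 on the KO array, against 104.55 on the WT array, at least 2.22-fold lower. The Cox7a1 bound depended on the floor and was at log2 -0.27, under 2-fold, when the floor was set at the 60th percentile.

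The isoforms found in most tissues differed less between the arrays. Cox6a1, the counterpart of Cox6a2, read 3461.47 on the KO array, against 5637.46 on the WT array (log2 ratio -0.70), and 1782.77 on the KO array, against 1693.77 on the WT array (0.07), at its second probe set. Cox7a2, the counterpart of Cox7a1, read 3080.26 on the KO array, against 3426.70 on the WT array (-0.15). Cox8a, the counterpart of Cox8b, read 886.38 on the KO array, against 580.82 on the WT array, 1.53-fold higher (0.61). The 2 other Cox8a probe sets had log2 ratios of 0.33 and, at signals near the floor, -0.44. In each pair the muscle isoform had the lower log2 ratio at every probe set compared. The difference between the members of a pair was not tested.

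**Figure D3:**
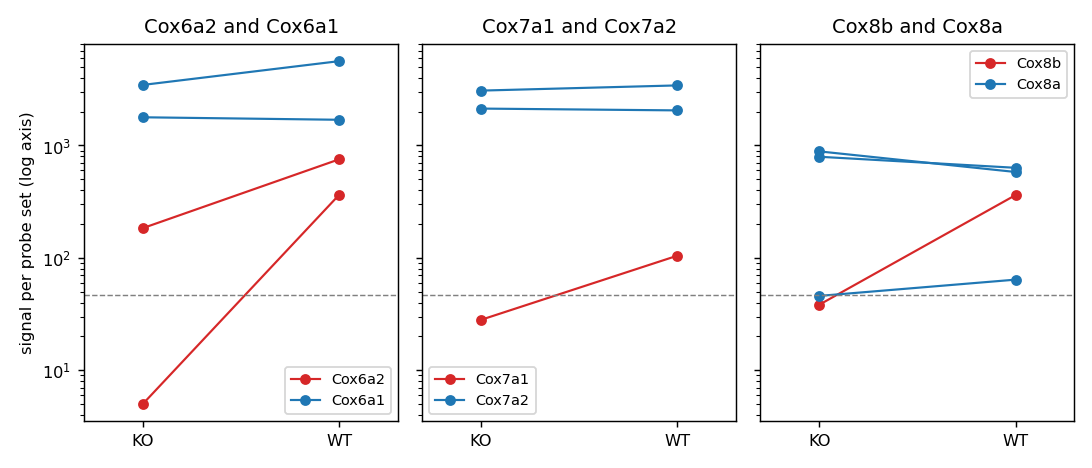
Signal of every probe set (log axis) of the muscle isoforms Cox6a2, Cox7a1 and Cox8b (red) and of their counterparts Cox6a1, Cox7a2 and Cox8a (blue) on the KO array, left, and on the WT array, right. Each line is 1 probe set and the dashed line is the floor of 47.04. All red lines run lower on the KO array, to 184.03 and 5.02 for Cox6a2, 28.07 for Cox7a1 and 38.19 for Cox8b, while the blue lines are closer to level. Levels of different probe sets cannot be set against each other.

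Genes of differentiated muscle were lower on the KO array alongside the muscle isoforms. Of 25 measured genes on a list of sarcomere and muscle fibre genes, 21 were at least 2-fold lower on the KO array and 1 was at least 2-fold higher. Over all measured genes the shares were 6.72% and 3.73%. The median log2 ratio of the list was -2.53, and its summed signal was 10900 on the KO array, against 47921.8 on the WT array. Myh7, the slow myosin heavy chain, read 89.29 on the KO array, against 1156.19 on the WT array, and Tnnc2, the fast troponin C, read 37.53 on the KO array, against 559.09 on the WT array. By main probe sets the highest ratios on the list belonged to Ckm, the muscle creatine kinase (-0.44), and Mb, myoglobin (1.28). The other Ckm probe set read 67.67 on the KO array, against 180.42 on the WT array (-1.41). The other Mb probe set read 60.11 on the KO array, against 411.32 on the WT array. The part of the sarcomere shift in the result for the isoforms was not tested, and in bulk RNA fewer cells of a type and less RNA per cell cannot be told apart. Cox7a1 and Cox8b are also known from brown fat. The brown fat markers Ucp1 and Cidea were under the floor on both arrays, and the 4 of 6 measured markers on that list summed to 1034.99 on the KO array, against 779.17 on the WT array. A single Dio2 probe set (889.14 on the KO array, against 482.32 on the WT array) carried the higher sum, while the median log2 ratio of the list was -0.13 and the 2 other Dio2 probe sets were at -0.11 and -0.43. Of 4 adipocyte markers named on the array the 2 measured summed to 147.13 on the KO array, against 488.93 on the WT array. Most of that sum was 1 Fabp4 probe set (113.25 on the KO array, against 412.18 on the WT array). The other Fabp4 probe sets were under the floor on both arrays. Pparg read 33.88 on the KO array, under the floor, against 76.75 on the WT array. Of 7 cardiac markers, Myh6, Myl7, Nppa, Nppb and Ryr2 were under the floor on both arrays. Tnni3 and Tnnt2 were at least 2-fold lower and summed to 571.91 on the KO array, against 26879.8 on the WT array. Nearly all of that sum was 1 Tnni3 probe set (92.58 on the KO array, against 24578.4 on the WT array), and Tnnt2 read 479.33 on the KO array, against 2301.41 on the WT array. The part of these markers was not tested.

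The promoters of the muscle isoforms Cox8b and Cox7a1 and of the isoforms Cox6a1, Cox8a and Cox7a2 are shown for comparison of their letters, since both kinds of isoform differed in their ratios. The sequences are those of RefSeq (build GRCm38.p6), from 250 bases before to 50 after the gene start, 5′ to 3′ on the strand of the gene. Capitals mark letters of a searched motif on either strand: the E-box (CANNTG), bound by MyoD and related factors, the NRF1 motif (matched in Cox6a1 by GCGCATGCGC), the estrogen-related receptor (ERR) motif (TGACCTT), the forkhead motif (TGTTTAC) and the MEF2 motif. Cox8b lies on the minus strand at chr7:140900397-140900696, Cox7a1 on the plus strand at chr7:30183921-30184220, Cox6a1 on the minus strand at chr5:115348909-115349208, Cox8a on the minus strand at chr19:7217567-7217866 and Cox7a2 on the minus strand at chr9:79759804-79760103.
Cox8b: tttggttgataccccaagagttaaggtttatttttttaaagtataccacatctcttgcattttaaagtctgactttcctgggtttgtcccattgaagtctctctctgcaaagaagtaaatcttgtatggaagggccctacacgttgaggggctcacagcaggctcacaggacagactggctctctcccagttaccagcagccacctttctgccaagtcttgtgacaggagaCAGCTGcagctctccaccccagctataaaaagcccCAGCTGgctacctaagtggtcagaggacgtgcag
Cox7a1: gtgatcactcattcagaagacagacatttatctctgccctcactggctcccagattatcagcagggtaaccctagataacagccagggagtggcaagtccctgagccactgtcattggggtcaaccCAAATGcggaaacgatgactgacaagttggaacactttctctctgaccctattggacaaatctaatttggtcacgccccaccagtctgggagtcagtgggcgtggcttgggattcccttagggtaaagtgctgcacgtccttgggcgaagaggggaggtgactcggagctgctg
Cox6a1: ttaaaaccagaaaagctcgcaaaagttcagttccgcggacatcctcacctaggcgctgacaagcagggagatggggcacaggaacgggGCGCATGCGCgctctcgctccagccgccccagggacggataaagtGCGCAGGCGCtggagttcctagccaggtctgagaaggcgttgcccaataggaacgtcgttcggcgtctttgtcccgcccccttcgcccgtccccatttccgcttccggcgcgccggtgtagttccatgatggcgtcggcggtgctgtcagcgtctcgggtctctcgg
Cox8a: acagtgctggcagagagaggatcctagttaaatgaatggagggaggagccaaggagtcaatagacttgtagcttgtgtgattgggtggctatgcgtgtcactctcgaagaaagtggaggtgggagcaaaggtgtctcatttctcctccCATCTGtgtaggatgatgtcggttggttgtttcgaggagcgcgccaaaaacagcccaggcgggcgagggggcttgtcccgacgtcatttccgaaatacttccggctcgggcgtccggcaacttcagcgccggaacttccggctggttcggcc
Cox7a2: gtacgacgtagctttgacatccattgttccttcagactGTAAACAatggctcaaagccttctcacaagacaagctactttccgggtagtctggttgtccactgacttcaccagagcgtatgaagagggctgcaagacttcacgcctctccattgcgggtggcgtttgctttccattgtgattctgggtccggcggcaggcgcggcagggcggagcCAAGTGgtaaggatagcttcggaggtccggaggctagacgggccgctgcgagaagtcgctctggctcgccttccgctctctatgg
The Cox8b window holds the E-box CAGCTG at -19 and again at 17, counted from the gene start at 1, and the Cox7a1 window holds CAAATG at -124. Among the counterparts, Cox8a holds CATCTG at -102 and Cox7a2 holds CAAGTG at -35. Cox6a1 holds no E-box in this window and has NRF1 matches at -162 and -117. The only forkhead letters among the 5 windows are in Cox7a2, at -212. A match is a description of letters, and 72.1% of all 27025 promoters of this length in the table hold an E-box.

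Complex I is the largest complex and its subunits were slightly lower on the KO array. Of 35 measured subunit genes 23 (65.7%) had ratios below 0, against 53.7% of all measured genes, and the median log2 ratio was -0.25. The scaling alternatives gave medians from -0.34 to -0.27. The complex I median was smaller, at -0.18, with probe sets averaged and also without _s_at and _x_at probe sets. By main probe sets 5 of the 35 subunits were at least 1.5-fold lower and 2 at least 1.5-fold higher. Over all measured genes the shares were 19.3% lower and 12.8% higher. The range over subunits, from -1.34 to 0.79, was wide beside the median.

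Among the lower subunits of complex I was Ndufa5, an accessory subunit of the peripheral arm. Its main probe set read 453.15 on the KO array, against 1150.28 on the WT array, 2.54-fold lower, and the second read 382.45 on the KO array, against 563.06 on the WT array, 1.47-fold lower. Ndufb2, an accessory subunit of the membrane arm, read 349.35 on the KO array, against 701.21 on the WT array, 2.01-fold lower, and 324.14 on the KO array, against 559.77 on the WT array, at its second probe set. Both genes were lower at each of their measured probe sets. Ndufb7, another membrane arm subunit, read 891.06 on the KO array, against 1430.85 on the WT array, and a value of 376.66 on the KO array, against 724.07 on the WT array, at its second probe set, so that both were at least 1.5-fold lower. Ndufa2 read 1391.07 on the KO array, against 2703.78 on the WT array, 1.94-fold lower by its only probe set. Ndufs7, a core subunit that carries an iron-sulfur cluster, was 1.61-fold lower at 1104.95 on the KO array, against 1779.28 on the WT array, but read 1062.43 on the KO array, against 1190.81 on the WT array, at its second probe set.

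The subunits that were higher on the KO array were led by Ndufa7, an accessory subunit measured by 5 probe sets. They read 2130.18, 1917.94, 1651.07, 1439.29 and 912.41 on the KO array, against 1324.79, 1188.95, 931.89, 733.80 and 498.69 on the WT array. Every Ndufa7 probe set was higher on the KO array, by 1.61-fold to 1.96-fold, and of the members with more than 1 measured probe set Ndufa7 was the only one with all of them at least 1.5-fold higher. Ndufa4l2, a relative of Ndufa4 known to be raised by hypoxia, read 124.56 on the KO array, against 71.92 on the WT array, 1.73-fold higher at a dim signal. Ndufab1, the mitochondrial acyl carrier protein, read 2110.11 on the KO array, against 1496.21 on the WT array, and a value of 413.74 on the KO array, against 171.94 on the WT array, at its second probe set, 2.41-fold higher. Its 2 dimmer measured probe sets had log2 ratios of 0.47 and -0.06.

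Core subunits of complex I included genes on both sides of 0. Ndufs1, which carries iron-sulfur clusters of the NADH arm, read 509.75 on the KO array, against 363.17 on the WT array (log2 ratio 0.49), and Ndufv1, which binds NADH, read 773.88 on the KO array, against 1078.49 on the WT array (-0.48). By main probe sets the core subunits Ndufs3, Ndufs8 and Ndufv2 had log2 ratios of -0.15, 0.18 and -0.32. Of the 6 Ndufs8 probe sets 4 were below 0, and the other Ndufv2 probe sets had log2 ratios of -0.18 and 0.61. Ndufa13, the brightest subunit gene of the group, read 2184.35 on the KO array, against 2700.33 on the WT array (-0.31). Ndufa4, named for complex I and now placed with complex IV, read 1505.29 on the KO array, against 1863.86 on the WT array (-0.31). Some genes had a second probe set far from the main one. The main probe set of Ndufs4 read 526.19 on the KO array, against 507.17 on the WT array, while an _x_at probe set read 153.00 on the KO array, against 495.43 on the WT array (-1.70). For Ndufa10 the main probe set read 831.49 on the KO array, against 680.12 on the WT array, and the other 33.10 on the KO array, against 96.88 on the WT array, at least 2.06-fold lower.

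Assembly factors of complex I help to build the complex and are not part of it. They showed a median of -0.40 (log2 ratio) in 8 genes, with 6 below 0, against 53.7% of all measured genes. The medians under other scalings were -0.45 to -0.33. Ndufaf4 was lower at both probe sets, with 201.06 on the KO array, against 345.38 on the WT array, and a second value of 131.70 on the KO array, against 358.92 on the WT array (log2 ratios -0.78 and -1.45). Ndufaf1 read 207.61 on the KO array, against 307.71 on the WT array (-0.57), and Ndufaf3 118.03 on the KO array, against 161.24 on the WT array (-0.45). Ndufaf2 stood on the other side at 442.24 on the KO array, against 295.33 on the WT array (0.58). Ndufaf8 read 506.02 on the KO array, against 452.20 on the WT array, by its main probe set and 84.58 on the KO array, against 165.42 on the WT array, by the other, so its direction was not settled. Ndufaf5, Ndufaf6 and Ndufaf7 had log2 ratios between -0.44 and -0.05.

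Complex II, the succinate dehydrogenase that also works in the citric acid cycle, showed a median of 0.19 (log2 ratio) in its 4 genes, a sign that turned to -0.011 with quantile scaling. The median was 0.02 with probe sets averaged. Sdhb, the iron-sulfur subunit, was close on both arrays at 1381.30 on the KO array, against 1293.64 on the WT array. Sdha, the flavoprotein, read 794.96 on the KO array, against 652.72 on the WT array, by its main probe set and 385.26 on the KO array, against 605.47 on the WT array, by the next. Sdhd, a membrane anchor, read 524.90 on the KO array, against 884.48 on the WT array, and in the opposite direction 714.95 on the KO array, against 456.42 on the WT array. For Sdha and Sdhd the probe sets of the same gene disagreed in sign. Sdhc, the other anchor, was higher at both probe sets, with 657.69 on the KO array, against 493.24 on the WT array, and a second value of 608.77 on the KO array, against 158.62 on the WT array (log2 ratios 0.42 and 1.94).

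Complex III together with cytochrome c showed a median of -0.03 (log2 ratio) in 9 genes, which became -0.30 with quantile scaling. By main probe sets only Uqcrfs1, the Rieske iron-sulfur protein, was at least 1.5-fold different. It read 1283.83 on the KO array, against 847.08 on the WT array (1.52-fold higher). The core proteins were close to level: Uqcrc1 read 766.90 on the KO array, against 768.02 on the WT array, and Uqcrc2 read 1351.81 on the KO array, against 1381.20 on the WT array. A second Uqcrc2 probe set had a log2 ratio of 0.51. By main probe sets the small subunits spread to both sides, from Uqcr11 (-0.51) and Uqcrb (-0.22) to Uqcrh (0.28) and Uqcrq (0.43). The second Uqcrh probe set had a log2 ratio of -0.10, and the dimmer Uqcrq probe sets had -0.80, 0.14 and -0.72. The direction of Uqcrh and Uqcrq therefore depended on the probe set. Uqcr10 was level by its main probe set, at 1305.25 on the KO array, against 1334.33 on the WT array. Its dimmer probe sets read 165.00 and 109.80 on the KO array, against 343.94 and 342.99 on the WT array, at least 2-fold lower in both. Cycs, the electron carrier between complexes III and IV, read 3287.23 on the KO array, against 3975.15 on the WT array (-0.27), and its 2 other measured probe sets had log2 ratios of 0.57 and -0.59.

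Complex IV apart from the muscle isoforms showed a median of -0.15 (log2 ratio) in 12 measured genes. Of these 7 (58.3%) were below 0, against 53.7% of all measured genes. Cox5a and Cox5b, nuclear subunits present in all tissues, were lower at every measured probe set. Cox5a read 4343.70 on the KO array, against 5880.43 on the WT array (-0.44), and Cox5b read 2817.14 on the KO array, against 3889.19 on the WT array (-0.47). Cox6b1, a subunit facing the intermembrane space, was 1.68-fold lower at 3380.92 on the KO array, against 5672.00 on the WT array, and 1.15-fold lower by its second probe set. Cox4i1, a regulatory subunit, read 4531.25 on the KO array, against 4099.33 on the WT array (0.14). Cox6c was higher by its main probe set, at 2254.84 on the KO array, against 1589.47 on the WT array, and lower by the other, at 1026.96 on the KO array, against 1705.01 on the WT array. Cox7c was measured by 1 probe set near the floor, with 43.40 on the KO array, against 62.94 on the WT array. Cox7a2l, a factor that joins complexes III and IV in supercomplexes, had log2 ratios of -0.50, 0.12 and 0.11 at its 3 probe sets.

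Tissue isoforms of complex IV other than the muscle forms differed less between the arrays. Cox4i2, known from lung and from hypoxia, read 112.22 on the KO array, against 124.06 on the WT array (-0.14). Cox6b2, a testis isoform, read 426.13 on the KO array, against 329.61 on the WT array (0.37), and Cox8c, another testis isoform, read 304.52 on the KO array, against 239.18 on the WT array (0.35). Muscle isoforms had log2 ratios of -1.15 to -2.94, and Cox4i2, Cox6b2 and Cox8c had -0.14 to 0.37. Ndufa4l2, counted above with complex I by its symbol, had 0.79 at a dim signal. The differences between these isoforms were not tested.

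The ATP synthase showed a median of -0.22 (log2 ratio) in 17 measured genes. Of these 12 were below 0, 2 at least 1.5-fold lower and 3 at least 1.5-fold higher. Over all measured genes 53.7% were below 0, 19.3% at least 1.5-fold lower and 12.8% at least 1.5-fold higher. The ATP synthase median was -0.43 with quantile scaling, -0.37 with loess scaling and -0.11 with probe sets averaged. The catalytic part differed in direction between its genes. Atp5b, the catalytic beta subunit, read 3133.79 on the KO array, against 2039.62 on the WT array, 1.54-fold higher by its only probe set, and Atp5c1, the gamma subunit of the central stalk, read 2815.35 on the KO array, against 2180.89 on the WT array (0.37). Atp5a1, the alpha subunit, read 2431.78 on the KO array, against 3725.08 on the WT array (-0.62), by its brightest probe set, an _s_at set, but 2512.69 on the KO array, against 1231.74 on the WT array (1.03), by the next. The direction of Atp5a1 therefore depended on the probe set.

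Subunit c, which forms the rotating ring in the membrane, is made in the same mature form from Atp5g1, Atp5g2 and Atp5g3. Atp5g2 was the single member at least 2-fold higher by its main probe set, at 1801.17 on the KO array, against 802.69 on the WT array, 2.24-fold. Its 2 other probe sets had a log2 ratio of 0.07 each, and the main probe set came to 0.93 with quantile scaling and was also under 2-fold after loess scaling. Atp5g3 was close to level, at 3871.76 on the KO array, against 4273.76 on the WT array, and Atp5g1 read 643.45 on the KO array, against 610.89 on the WT array. Of the small membrane subunits, Atp5k was lower at all 3 probe sets (log2 ratios -0.78, -0.22 and -0.20) and Atp5l read 2837.02 on the KO array, against 4044.68 on the WT array (-0.51). Atp5mpl read 1489.33 on the KO array, against 858.01 on the WT array, 1.74-fold higher by 1 probe set.

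Probe sets of the same gene gave the only measure of technical spread. Of 49 members with at least 2 measured probe sets, 14 were lower on the KO array at all of them, 6 were higher at all and 29 were mixed. Genes lower throughout included Cox6a2, Ndufa5, Ndufb2, Ndufb7, Ndufaf4, Cox5a, Cox5b and Atp5k, and genes higher throughout were Atp5g2, Cox8c, Ndufa3, Ndufa7, Ndufc2 and Sdhc. All measured probe sets reached 1.5-fold in Cox6a2, Ndufaf4 and Ndufb7 on the lower side and in Ndufa7 on the higher side. These counts were made for members only, so no share over all genes stands beside them. Among 47 members with at least 2 probe sets that exceeded the floor on each array, the main one and the next had the same sign in 55.3%, against 53.9% of 4752 genes in all. In members the median log2 ratio was -0.24 at the main probe set and -0.14 at the next. In all such genes these medians were -0.12 and -0.01, so main probe sets gave lower ratios in both groups. The median size of the difference between the log2 ratios of the main and the next probe set was 0.59 in members and 0.57 in all such genes. This spread is per gene and does not measure the uncertainty of a median over the genes of a complex.

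**Figure D4:**
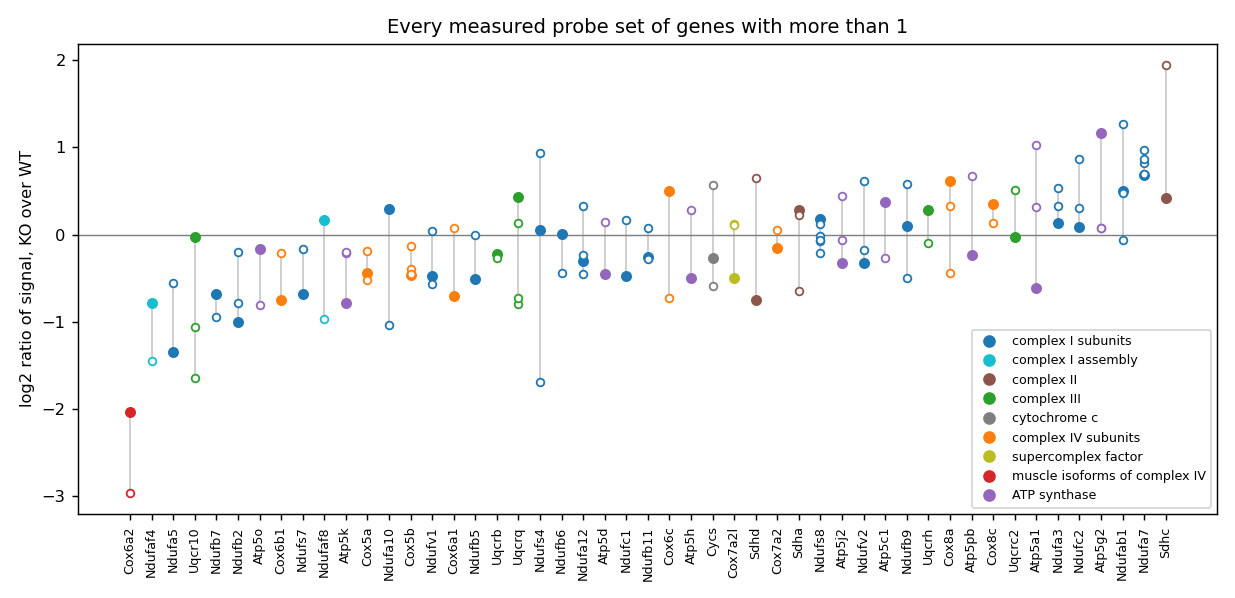
Log2 ratio (KO over WT, vertical axis) of every measured probe set of the 49 members with more than 1, ordered by the mean of the gene. Filled points are main probe sets, open points the others, a grey line joins those of a gene and colours mark the complex. Probe sets of 29 genes lie on both sides of 0, those of Cox6a2 lie lowest, and the 5 of Ndufa7 lie together between 0.69 and 0.97.

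Members were bright genes, and the shift of all genes differed with brightness. A mean signal of 500 or more (geometric mean of both arrays) was reached by 70 of the 89 measured members (78.7%), against 11.3% of all measured genes. At that brightness 46 of the 70 members (65.7%) had ratios below 0, against 43.7% of all 1656 genes, and the median log2 ratio was -0.17 in members, against 0.08 in all. For the brightest genes, at 2000 or more, 17 of 21 members were below 0 with a median of -0.33, and all 193 genes of that class had a median of -0.00. The shift also differed with the kind of probe set. Members had ratios below 0 at 30 of 41 probe sets ending in _a_at (73.2%), against 45.2% of such probe sets in all, and at 44 of 82 probe sets with the plain ending _at (53.7%), against 50.2% in all. Probe sets ending in _x_at of members were below 0 in 65.5%, against 65.1% in all, and those ending in _s_at in 10 of 19 (52.6%), against 60.2% in all. The part of probe set kind in the shift of the members was not tested.

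**Figure D5:**
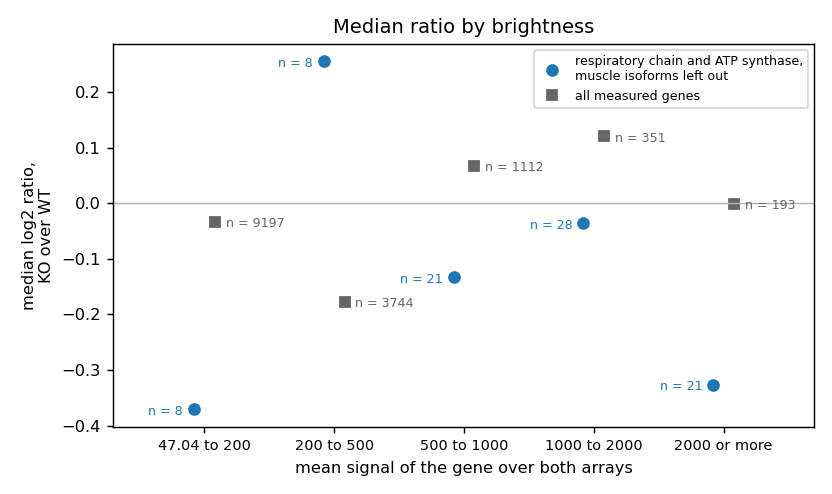
Median log2 ratio (KO over WT, vertical axis) in classes of mean signal over both arrays (horizontal axis) for members without the muscle isoforms (blue) and for all measured genes (grey squares), with the number of genes beside each point. From 500 upward the members lie below all genes in each class (-0.13, -0.04 and -0.33, against 0.07, 0.12 and -0.00). In the class of 200 to 500, with 8 members, they lie above (0.26, against -0.18).

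Motifs in the promoters were counted over the 75 members matched in the RefSeq table. NRF1, a factor known to drive nuclear genes of the respiratory chain, had a match in 16 of them (21.3%), against 4.78% of all 27025 promoters. The NRF1 motif is rich in G and C, and the median GC content was 59% in the promoters of members, against 52.7% in all. The ERR motif was present in 8 members (10.7%), against 4.66% in all, the forkhead motif in 2 (2.67%), against 3.55%, and the E-box in 53 (70.7%), against 72.1%. The MEF2 motif was found in 0 of the 75 windows, against 1.89% in all. Leaving out the muscle isoforms, the 15 measured members with an NRF1 match had a median log2 ratio of -0.37 and the 56 without one -0.23. The 49 with an E-box had a median of -0.25, against -0.26 for the 22 without one. The 7 measured members with the ERR motif, Atp5e, Atp5g3, Atp5k, Atp5l, Ndufb2, Ndufs5 and Sdhd, all had ratios below 0 by their main probe sets, with a median of -0.52, and of the 64 without it 43 were below 0 with a median of -0.20. These differences were not tested, and the second probe set of Sdhd was above 0.

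Other mitochondrial genes were taken from lists of related pathways. Genes for the assembly of complexes III and IV showed a median of -0.42 (log2 ratio) in 22 measured genes. Of these 16 were below 0, 3 at least 2-fold lower and 0 at least 2-fold higher. Over all measured genes 53.7% were below 0, 6.72% at least 2-fold lower and 3.73% at least 2-fold higher. Cox10, which makes heme for complex IV, read 123.27 on the KO array, against 332.43 on the WT array (2.70-fold lower), and its other measured probe set had a log2 ratio of -0.08. Bcs1l, which inserts the Rieske protein into complex III, read 94.14 on the KO array, against 239.29 on the WT array (2.54-fold lower by 1 probe set). At the other end were Coa7, with log2 ratios of 0.90 and -0.69 at its probe sets, and Sco2, a copper carrier of complex IV, at 0.79.

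The citric acid cycle list had a median of -0.05 over 16 genes (-0.20 with quantile and -0.13 with loess scaling). Of these 0 were at least 2-fold lower and 1, Idh3a, at least 2-fold higher, against 6.72% and 3.73% of all measured genes. Idh3a read 989.72 on the KO array, against 442.67 on the WT array, and its 3 other probe sets had log2 ratios of 0.20, -0.20 and -0.65. Pdha1, a subunit of pyruvate dehydrogenase, was higher at both probe sets (0.62 and 1.35). The lowest genes were Sucla2 (-0.45) and Ogdh (-0.41). Genes of mitochondrial import had a median of -0.16 over 19 (-0.33 with quantile and -0.29 with loess scaling), from Timm17b (-1.16) and Tomm22 (-0.91, with 0.32 at its other probe set) to Tomm20 (0.34) and Hspa9 (0.95). Of the other Hspa9 probe sets, 2 bright ones were at -0.08 and -0.17, and another read 357.56 on the KO array, against 7.55 on the WT array, at least 7.60-fold higher.

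Regulators of mitochondrial biogenesis had a median of -0.06 over 18 measured genes, a sign that turned to 0.04 with quantile scaling and 0.05 with loess scaling. Of these 18 genes, 4 were at least 2-fold lower and 1 at least 2-fold higher, against 6.72% and 3.73% of all measured genes. Ppargc1a, the coactivator PGC-1alpha known to drive mitochondrial genes in muscle, read 51.42 on the KO array, against 168.81 on the WT array, 3.28-fold lower. Its 2 next probe sets read 53.77 and 68.47 on the KO array, against 148.83 and 95.77 on the WT array, both lower, at signals close to the floor. A dimmer one read 50.27 on the KO array, against 28.06 on the WT array, where it did not reach the floor. Polg2, an accessory subunit of the mitochondrial DNA polymerase, read 80.56 on the KO array, against 200.02 on the WT array (2.48-fold lower), and Tfb2m, a transcription factor of mitochondrial DNA, 223.21 on the KO array, against 104.22 on the WT array (2.14-fold higher). Ppara, a nuclear receptor of fatty acid oxidation, had a log2 ratio of 0.72. Of the subunits encoded in mitochondrial DNA, 1 probe set could be named, for ND5 of complex I, and it read 4413.11 on the KO array, against 574.15 on the WT array, 7.69-fold higher. No second probe set was available to check the ND5 value, which lay on the opposite side of 0 from the median of the nuclear subunits of complex I.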

How the data were processed

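Total RNA of 1 Foxj3 KO and 1 Foxj3 WT myoblast culture was labelled with biotin and hybridised to Affymetrix mouse arrays, per the labels' protocols. The deposited table gives each probe set 1 intensity per array, on a linear scale. No source used here gives the summarising algorithm or the scaling. Both arrays were hybridised on the same day in different fluidics modules, per the file headers. The number of columns without a sample was 0.

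Symbols came from the platform annotation, which can be old: of 45037 probe sets 34945 had 1 symbol, 932 several and 9160 none listed. Promoters were matched by gene identifier to RefSeq (GRCm38.p6), 75 of 91 members, 1 window a gene. Values were used as deposited, raised to the floor (40th percentile, 47.04) and compared as log2 ratios, KO over WT, with fixed limits of 2-fold and 1.5-fold. No test was possible with 1 array per group, and the number of arrays limits the precision. The code was checked on simulated data. Named were the muscle isoforms and their counterparts, core subunits, the 3 highest, 3 lowest and the brightest gene of each complex, genes past 1.5-fold, and genes with a probe set past 2-fold. Of other lists the 2 highest and 2 lowest were named. Members, lists and the naming rule were chosen with earlier results of these data known. The brightness limit of 500 was chosen after seeing the data. Protein sequences were not analysed here. Python 3.11.15, numpy 2.4.6, pandas 2.3.3 and statsmodels 0.14.6 were used.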

Additional observations from a re-analysis of the deposited data

How the results depend on the processing

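The counts, the overall median and the medians of the complexes were recomputed after scaling the arrays by quantiles, by medians or by loess with a span of 0.3, with the floor moved to the 20th or the 60th percentile or replaced by a pseudocount of the same size, with probe sets averaged, and without _s_at and _x_at probe sets. The overall median stayed below 0 under all of these and was -0.34 with quantile scaling, where the median of complex III with Cycs was -0.30 and that of complex II turned to -0.011. The count of members at least 2-fold higher was 0 after quantile scaling, 0 after loess and 3 without _s_at and _x_at probe sets, when Atp5a1 and Ndufab1 joined Atp5g2. Over all measured genes the shares at least 2-fold higher under these settings were 4.07%, 4.20% and 3.98%. At 1.5-fold, 14 members were lower and 7 higher, against 19.3% and 12.8% of all measured genes. Among members at a mean signal of 500 or more, an alternative chosen after seeing the data, 1 was at least 2-fold lower, since the muscle isoforms and Ndufb2 had lower mean signals. Of all genes at that signal 1.93% were at least 2-fold lower. Cox6a2 and Cox8b were at least 2-fold lower under the scalings, floors, pseudocount, averaging and probe set filter listed first, with log2 ratios of -2.50 to -1.79 and -3.24 to -2.07, while Cox7a1 came to -0.27 with the higher floor. Ndufb2 came to -0.97 after loess, -0.92 with the pseudocount and -0.66 as the mean of its probe sets, and Ndufa5 to -0.95 as such a mean, all under 2-fold, while Ndufa2 passed 2-fold after quantile (-1.15), loess (-1.11) and median scaling. The medians of complex I, complex III with Cycs, complex IV, the ATP synthase and the muscle isoforms kept their sign under the alternatives listed first, with sizes that changed, for the ATP synthase between -0.43 and -0.11. No paired analysis was possible because each group has 1 array. Signals near 47.04 give only bounds.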
